A study of Mus musculus with 8 samples.

Results

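The genes described here are the machinery of mitosis: the kinases and cyclins that start it, the kinetochore and checkpoint proteins that attach and count chromosomes, the anaphase-promoting complex arm that ends it, and the motors and cytokinesis proteins that divide the cell. Members were taken by symbol from a list of 43 genes, and 41 of them had a probe set that carries their symbol and no other, out of 12393 genes measured in all. A gene with several probe sets was read from the set with the highest mean over the 8 arrays. Ccnb1 and Cdca8 were not analysed here. The list was drawn up by name and role, with earlier results of these data known.

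Total RNA was measured on 8 Affymetrix arrays, 4 from Ca/Ca soft tissue sarcomas (numbered 1, 2, 3 and 5), 2 from Ca/+ soft tissue sarcomas (numbered 1 and 2), 1 from Ca/Ca muscle and 1 from Ca/+ muscle. All mice carried floxed p53 alleles (p53 Fl/Fl), muscles included, and the conditional Braf allele BrafCa on both chromosomes (Ca/Ca) or on one (Ca/+). Tumours were started by injecting an adenovirus that expresses Cre recombinase, which recombines the conditional alleles, and each muscle came from a hind limb without a tumour, so Cre was delivered to the tumours and not to those limbs. The labels give no age, strain or sex. They also do not say whether each array is a different animal, so a p-value here speaks of the spread among these samples, part of which may be technical. Braf ranged on the log2 scale from 4.45 to 5.07 in the 6 sarcomas and stood at 4.50 in the Ca/Ca muscle and at 4.62 in the Ca/+ muscle, and its probe set is not known here to lie in the altered part of the allele. The muscles carried the muscle label in their genes: all 11 skeletal muscle fibre markers were lower in sarcomas than in muscles and passed the test, and the mean log2 level of the 11 was 6.54 to 8.79 in sarcomas, against 12.6 for the Ca/Ca muscle and 12.5 for the Ca/+ muscle. These are levels of whole tissue, in which fewer dividing cells and less of the RNA per cell cannot be told apart.

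In a dividing cell these genes are switched on late, in the phase before mitosis and in mitosis itself, and resting tissue such as adult muscle fibre makes little of their RNA. Cdk1 with its cyclins drives entry into mitosis, the checkpoint proteins hold the cell until every kinetochore is attached to the spindle, and the anaphase-promoting complex then marks securin and the cyclins for destruction. Many of their promoters share a pair of elements, a cell cycle homology region known as the CHR and a CCAAT box. The CHR is bound by complexes built on the MuvB core, which include the repressor DREAM and the activators B-Myb and Foxm1, and the CCAAT box is bound by the factor NF-Y.

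One promoter stretch is shown for each role, that of the member with the largest sarcoma-minus-muscle difference among those with a stretch in the RefSeq table of build GRCm38.p6. The choice goes by the difference of means and not by the gap between single sarcomas and muscles. Each stretch is 150 bases long, from 120 before to 30 after the gene's annotated start, written 5′ to 3′ on the strand of the gene. Capitals mark the CHR core (TTTGAA or TTCGAA, or TTCAAA where TTTGAA lies on the other strand) and the CCAAT box (CCAAT, or ATTGG where it lies on the other strand). They come from chr10:69352883-69353032 for Cdk1 (minus strand), chr11:117849117-117849266 for Birc5 (plus strand), chr2:127831830-127831979 for Bub1 (minus strand), chr2:69206184-69206333 for Spc25 (minus strand), chr2:164769809-164769958 for Ube2c (plus strand), chr4:117178743-117178892 for Kif2c (minus strand), chr9:22389177-22389326 for Anln (minus strand) and chr11:99024160-99024309 for Top2a (minus strand).
Cdk1: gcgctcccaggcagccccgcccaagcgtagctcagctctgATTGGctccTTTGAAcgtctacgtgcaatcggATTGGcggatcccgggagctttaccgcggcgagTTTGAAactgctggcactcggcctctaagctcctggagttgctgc
Birc5: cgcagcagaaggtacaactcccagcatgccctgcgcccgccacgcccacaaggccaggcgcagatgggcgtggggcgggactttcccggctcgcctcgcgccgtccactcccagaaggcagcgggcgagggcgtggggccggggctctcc
Bub1: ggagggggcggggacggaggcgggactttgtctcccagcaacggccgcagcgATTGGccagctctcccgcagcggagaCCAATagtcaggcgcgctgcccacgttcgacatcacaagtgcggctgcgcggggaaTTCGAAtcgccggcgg
Spc25: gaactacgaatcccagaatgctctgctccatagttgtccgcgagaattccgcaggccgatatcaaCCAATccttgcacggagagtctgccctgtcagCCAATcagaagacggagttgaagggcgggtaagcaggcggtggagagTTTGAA
Ube2c: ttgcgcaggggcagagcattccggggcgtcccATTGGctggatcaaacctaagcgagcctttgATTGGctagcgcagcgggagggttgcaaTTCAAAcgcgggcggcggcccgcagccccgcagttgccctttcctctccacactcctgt
Kif2c: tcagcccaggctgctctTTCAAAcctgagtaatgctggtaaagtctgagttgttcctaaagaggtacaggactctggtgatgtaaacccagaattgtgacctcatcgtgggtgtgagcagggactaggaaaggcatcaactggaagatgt
Anln: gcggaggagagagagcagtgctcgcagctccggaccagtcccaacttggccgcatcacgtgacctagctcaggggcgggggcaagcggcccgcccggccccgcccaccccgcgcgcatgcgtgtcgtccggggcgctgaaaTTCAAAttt
Top2a: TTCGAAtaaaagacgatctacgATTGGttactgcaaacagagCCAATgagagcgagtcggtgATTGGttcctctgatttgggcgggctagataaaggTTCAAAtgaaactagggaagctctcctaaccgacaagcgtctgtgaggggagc
The Cdk1 stretch holds 2 CHR cores and 2 CCAAT boxes, Top2a 2 and 3, and Bub1, Spc25 and Ube2c 1 and 2. Kif2c and Anln hold a CHR core and no CCAAT box in these letters, and Birc5 holds neither.

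The search was then run over 300-base stretches, from 250 before to 50 after the start, on both strands. RefSeq stretches were at hand for 34 of the 41 members. The CHR core was found in 26 of the 34 (76.5%), against 17.3% of the 9887 measured genes with a stretch, and the CCAAT box in 25 (73.5%), against 42.3%. Both were found in 23 of the 34 (67.6%), against 6.88% of all genes. In 24 members a CHR core began within 50 bases of the start, a count with no share over all genes beside it. No CHR core overlapped a CCAAT box, which the letters of these motifs barely allow. Melk, Birc5, Mad2l1, Nuf2, Pttg1 and Nusap1 held neither. A match describes letters and is not a shown binding site, and no match says only that these letters are not in this window.

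**Figure D1:**
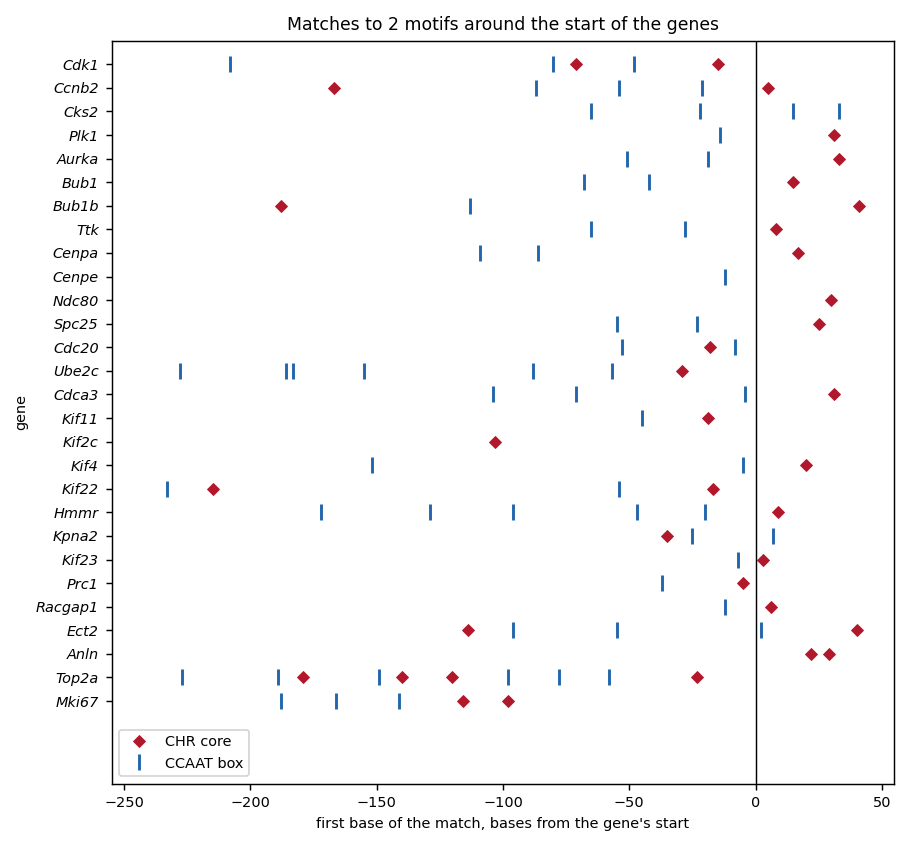
Positions of the CHR core (diamonds) and the CCAAT box (bars) in the 300-base stretches of the 28 members that hold at least 1 of them, in bases from the annotated start (vertical line at 0). Most CHR cores lie near the start, and the CCAAT boxes mostly lie upstream of them.

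Most of these genes rose in sarcoma. The mean of the 6 sarcomas was above the mean of the 2 muscles in 41 of 41 members, and the median difference was 2.16 on the log2 scale (that of Kif2c, 4.47-fold), against 0.03 over all genes. In the limma fit over all 12393 genes, 33 members rose at an adjusted p under 0.05, 0 fell and 8 did not pass. Of all genes, 13.1% rose in that fit and 13.2% fell. All 33 rose by at least 2-fold, a size reached by 6.08% of all genes, and 22 by at least 4-fold, reached by 1.23%. The smallest difference was that of Aurka, 0.47, and the largest that of Anln, 3.17. In 35 members all 6 sarcomas lay above both muscles, which 20.0% of all genes did.

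The test leans on 1 array. Without the Ca/+ muscle, all 41 members still lay higher in sarcomas, with a median of 1.62, but only Cks2 (2.10, adjusted p = 0.0372, limma) and Ect2 (1.99, adjusted p = 0.0328) passed, and over all genes 372 rose (3.0%) in place of 1626. Within the Ca/Ca arrays alone, 40 members lay higher in sarcomas, 0 passed in limma (17 had an unadjusted p under 0.05, as did 21.6% of all genes in either direction) and the median was 1.24, and 0.734% of all genes rose there. Within the Ca/+ arrays alone 40 members rose, against 4.78% of all genes, and the median was 3.25. In these fits a lone muscle is taken to vary like the sarcomas, and in the Ca/+ arrays that spread rests on 2 sarcomas alone. The numbers of members that passed in the Ca/Ca and in the Ca/+ arrays therefore do not compare the genotypes. Each member that rose below did so in the fit on all 8 arrays and, Cks2 and Ect2 apart, did not pass without the Ca/+ muscle.

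**Figure D2:**
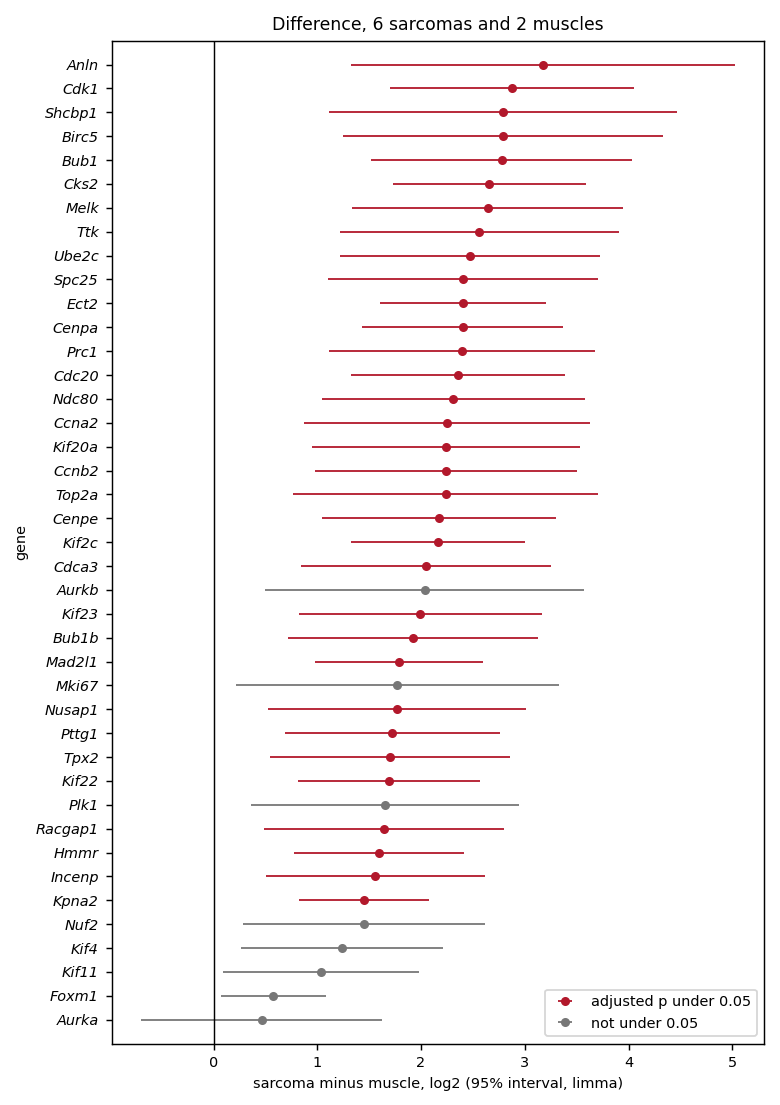
Sarcoma-minus-muscle difference of each member on the log2 scale, with its 95% interval from limma (6 sarcomas, 2 muscles), ordered by size. Red points passed at an adjusted p under 0.05 (33 members) and grey points did not (8 members). All 41 points lie right of 0.

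Among the kinases, cyclins and their transcription factor, 5 of the 8 measured rose, with a median difference of 2.25 over the 8. Cdk1, the kinase that drives mitotic entry, stood at 8.94, 9.09, 8.84 and 7.98 in Ca/Ca sarcomas 1, 2, 3 and 5, at 9.61 and 9.72 in Ca/+ sarcomas 1 and 2, at 6.94 in the Ca/Ca muscle and at 5.37 in the Ca/+ muscle. Every sarcoma was above both muscles, the Ca/+ pair was highest and Ca/Ca sarcoma 5 was the lowest tumour. Cdk1 was 7.34-fold higher in sarcomas (2.88 on the log2 scale, SE 0.51, adjusted p = 0.00488, limma). Cks2, a small protein that binds the kinase, stood at 9.74, 10.03, 10.32 and 9.18 in the Ca/Ca sarcomas, at 10.57 and 10.38 in the Ca/+ sarcomas, at 7.93 in the Ca/Ca muscle and at 6.82 in the Ca/+ muscle. Cks2 rose by 2.66 (SE 0.41, adjusted p = 0.00242), and its lowest sarcoma was still 1.24 above the higher muscle. The cyclins Ccna2 and Ccnb2, which bind and activate Cdk1, rose by 2.25 and 2.24, and the kinase Melk by 2.64 (adjusted p = 0.0259, 0.0186 and 0.0110), and Ccna2 did not pass without Ca/Ca sarcoma 2 (adjusted p = 0.0501).

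Plk1, Aurka and Foxm1 did not pass. Plk1, the polo-like kinase of spindle assembly and cytokinesis, averaged 7.15 ± 0.85 over the sarcomas (SD, n = 6) and 5.50 ± 0.55 over the muscles (SD, n = 2), a difference of 1.65 (SE 0.56, adjusted p = 0.0630, limma). Leaving out Ca/Ca sarcoma 3 or Ca/Ca sarcoma 5 brought Plk1 past the threshold (adjusted p = 0.0368 and 0.0290). Foxm1, the forkhead factor of this gene set, averaged 6.23 ± 0.31 over the sarcomas (SD, n = 6) and 5.65 ± 0.05 over the muscles (SD, n = 2), a difference of 0.58 (SE 0.22, adjusted p = 0.0905), and leaving out Ca/Ca sarcoma 3 brought it past the threshold (adjusted p = 0.0447). Its other probe sets differed by 0.61, 0.98 and 0.04, all smaller than the median of the members. Aurka, the Aurora kinase of centrosomes and spindle poles, stood at 7.38, 7.26, 6.86 and 6.23 in the Ca/Ca sarcomas, at 8.08 and 8.30 in the Ca/+ sarcomas, at 7.19 in the Ca/Ca muscle and at 6.58 in the Ca/+ muscle. Here the tissues overlap: Ca/Ca sarcomas 3 and 5 lay below the Ca/Ca muscle, and sarcoma 5 below both muscles. The difference of Aurka was 0.47 (SE 0.51, 95% interval -0.70 to 1.63, adjusted p = 0.554), and among the Ca/Ca arrays alone its sign turned, to -0.26.

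In the chromosomal passenger complex, which corrects faulty attachments and steers cytokinesis, 2 of 3 measured members rose. Birc5, survivin, stood at 8.08, 8.35, 8.28 and 6.61 in the Ca/Ca sarcomas, at 9.05 and 9.09 in the Ca/+ sarcomas, at 6.33 in the Ca/Ca muscle and at 4.58 in the Ca/+ muscle. Birc5 was 6.91-fold higher in sarcomas (2.79, SE 0.68, adjusted p = 0.0174, limma), with sarcoma 5 only 0.28 above the Ca/Ca muscle. Incenp, the scaffold, rose by 1.56 (SE 0.46, adjusted p = 0.0383), and the call was lost when any 1 of 6 arrays was left out, the exceptions being Ca/Ca sarcomas 3 and 5 (highest adjusted p = 0.320, without the Ca/+ muscle). Its other probe sets differed by 1.15 and -0.12, and with the mean of its probe sets Incenp differed by 0.86 and did not pass (adjusted p = 0.0639). Aurkb, the kinase of the complex, was higher in sarcomas by 2.04 (SE 0.67) but did not pass (adjusted p = 0.0563). It came past the threshold in 4 of 19 alternatives: once Ca/Ca sarcoma 5 was left out (adjusted p = 0.0205), with array weights (0.0220), in the Ca/+ arrays alone (0.0210) and without the dimmest 25% of genes (0.0471).

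All 4 spindle checkpoint genes rose. Bub1, a checkpoint kinase at kinetochores, stood at 7.43, 7.74, 7.23 and 6.25 in the Ca/Ca sarcomas, at 8.39 and 8.46 in the Ca/+ sarcomas, at 5.18 in the Ca/Ca muscle and at 4.43 in the Ca/+ muscle. The tissues did not overlap, and the lowest sarcoma, number 5, was 1.06 above the higher muscle. Bub1 was 6.85-fold higher in sarcomas (2.78, SE 0.55, adjusted p = 0.00748, limma). Ttk, the Mps1 kinase that starts the checkpoint signal, rose by 2.56 (SE 0.59, adjusted p = 0.0140). Bub1b and Mad2l1, parts of the complex that holds back Cdc20, rose by 1.92 and 1.79 (adjusted p = 0.0285 and 0.00744), and Bub1b did not pass without Ca/Ca sarcoma 2 (adjusted p = 0.0525).

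Of the 5 centromere and kinetochore members, 4 rose, by 2.17 to 2.41. Spc25, a part of the Ndc80 complex that grips microtubules, stood at 7.38, 7.68, 7.60 and 6.23 in the Ca/Ca sarcomas, at 8.36 and 8.29 in the Ca/+ sarcomas, at 5.87 in the Ca/Ca muscle and at 4.49 in the Ca/+ muscle. The 6 sarcomas were above both muscles, and the Ca/+ muscle was lowest of all. Spc25 and Ndc80 rose by 2.41 (SE 0.57) and 2.31 (SE 0.55), with adjusted p = 0.0157 and 0.0165 (limma). Cenpa, the histone variant that marks the centromere, rose by 2.40 (SE 0.42, adjusted p = 0.00459), and Cenpe, the kinetochore kinesin, by 2.17 (SE 0.49, adjusted p = 0.0133). Nuf2, the partner of Ndc80, differed by 1.45 (SE 0.51, adjusted p = 0.0695), and leaving out Ca/Ca sarcoma 5 brought it past the threshold (adjusted p = 0.0132).

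The anaphase-promoting complex arm rose in all 4 members. Ube2c, the ubiquitin-conjugating enzyme of the complex, stood at 8.82, 8.91, 8.97 and 8.01 in the Ca/Ca sarcomas, at 9.96 and 9.92 in the Ca/+ sarcomas, at 7.30 in the Ca/Ca muscle and at 5.96 in the Ca/+ muscle. The 3 Ca/Ca sarcomas other than number 5 lay within 0.15 of each other, below the Ca/+ pair and above both muscles. Ube2c was 5.54-fold higher in sarcomas (2.47, SE 0.55, adjusted p = 0.0121, limma). Cdc20, the activator of the complex, rose by 2.35 (SE 0.45, adjusted p = 0.00646), Cdca3, a target of the complex, by 2.05 (SE 0.53, adjusted p = 0.0221), and Pttg1, securin, by 1.72 (SE 0.45, adjusted p = 0.0241). Pttg1 did not pass without the Ca/Ca muscle (adjusted p = 0.0604). The other probe sets of Cdca3, both dimmer, differed by -0.09 and -0.14, and with the mean of its probe sets Cdca3 differed by 0.61 and did not pass (adjusted p = 0.0687).

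The core of the enzyme rose in part. Of 12 measured core subunits of the anaphase-promoting complex, 4 rose, against 13.1% of all genes. Another 2 fell, a share near the 13.2% of all genes that fell. The other 6 did not pass, and the median difference over the 12 was 0.48. Anapc5, a scaffold subunit, fell to 10.42 ± 0.18 over the sarcomas (SD, n = 6), against 11.46 ± 0.22 over the muscles (SD, n = 2), with adjusted p = 0.00294 in the limma fit. Anapc11, the catalytic RING subunit, rose by 0.84 (adjusted p = 0.0109). Without the Ca/+ muscle 0 of the 12 rose (6 had an unadjusted p under 0.05) and 1 fell, and without the Ca/Ca muscle 1 rose. Fewer of all genes also rose and fell in the fits with a muscle left out. The difference between the core and the arm was not tested.

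Of 8 spindle motors and spindle proteins 6 rose, and the median difference, 1.64, was the lowest of the roles. Kif2c, a kinesin that takes microtubules apart at centromeres, stood at 7.09, 7.50, 7.30 and 6.38 in the Ca/Ca sarcomas, at 7.83 and 7.66 in the Ca/+ sarcomas, at 5.48 in the Ca/Ca muscle and at 4.79 in the Ca/+ muscle. The sarcomas were all above the muscles, and Ca/Ca sarcoma 2 came close to the Ca/+ pair. Kif2c rose by 2.16 (SE 0.37, adjusted p = 0.00390, limma), and its other probe sets differed by 1.70, -0.22 and 0.02, from the brightest to the dimmest. Kpna2, an importin that carries and releases spindle factors, had the smallest error of the role (1.45, SE 0.27, adjusted p = 0.00610). Kif22, a chromosome-bound kinesin, rose by 1.69, Hmmr, a microtubule-binding spindle protein, by 1.59, and Tpx2, the activator of Aurka at the spindle, by 1.70 (adjusted p = 0.0131, 0.0131 and 0.0393).

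Nusap1, which bundles spindle microtubules, rose by 1.77 (adjusted p = 0.0437), the weakest call of the 33. It lost the call without any 1 array except Ca/Ca sarcoma 5 (adjusted p up to 0.354, without the Ca/+ muscle) and with the mean of its probe sets (0.93, adjusted p = 0.110), and Ca/Ca sarcoma 5, at 6.05, lay below the Ca/Ca muscle, at 6.28. Tpx2 lost its call under 5 of the 8 single omissions, those of Ca/Ca sarcomas 1 and 2, Ca/+ sarcoma 2 and each muscle (adjusted p from 0.0575 to 0.280) and with the mean of its probe sets (1.45, adjusted p = 0.0531), and Hmmr without the Ca/Ca muscle (adjusted p = 0.0661). Kif11, the kinesin that pushes spindle poles apart, differed by 1.04 (SE 0.41, adjusted p = 0.101), and its other probe sets, by 1.77 and 1.57, differed more. Kif4, a chromosome-bound kinesin, differed by 1.24 (SE 0.43, adjusted p = 0.0650). Both came past the threshold once Ca/Ca sarcoma 5 was left out (adjusted p = 0.0127 and 0.0424), and Kif4 also once Ca/Ca sarcoma 3 was (adjusted p = 0.0480).

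Cytokinesis was the role with the highest median, 2.40, and all 7 members rose. Anln, the scaffold that ties actin, myosin and septins into the cleavage ring, stood at 8.23, 7.93, 7.47 and 7.0 in the Ca/Ca sarcomas, at 9.17 and 9.01 in the Ca/+ sarcomas, at 6.45 in the Ca/Ca muscle and at 3.46 in the Ca/+ muscle. All sarcomas were above both muscles, but the muscles themselves lay 2.99 apart, more than the whole range of the sarcomas. Anln was 9.03-fold higher in sarcomas (3.17, SE 0.81, adjusted p = 0.0212, limma). Ect2, the exchange factor that activates RhoA at the cell equator, stood at 6.62, 7.08, 6.89 and 6.25 in the Ca/Ca sarcomas, at 7.64 and 6.94 in the Ca/+ sarcomas, at 4.91 in the Ca/Ca muscle and at 4.09 in the Ca/+ muscle. Its lowest sarcoma was 1.34 above the higher muscle, and Ect2 rose by 2.40 (SE 0.35, adjusted p = 0.00199).

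The central spindle that recruits Ect2 rose with it. Kif23 and Racgap1, the motor and the GTPase-activating subunit of centralspindlin, rose by 1.99 and 1.64 (adjusted p = 0.0217 and 0.0435, limma). Prc1, which bundles the central microtubules, rose by 2.40, Kif20a, the kinesin that brings the passenger complex there, by 2.24, and Shcbp1, a partner of centralspindlin, by 2.79 (adjusted p = 0.0150, 0.0202 and 0.0239). Shcbp1 did not pass without the Ca/Ca muscle (adjusted p = 0.0592). Racgap1 did not pass without any 1 of 6 arrays, the exceptions again being Ca/Ca sarcomas 3 and 5 (adjusted p up to 0.311).

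The chromosome proteins were Top2a, the topoisomerase that untangles sister chromatids, and Mki67, the Ki-67 protein that coats mitotic chromosomes and is the usual stain for dividing cells. Top2a stood at 9.21, 9.24, 8.23 and 7.62 in the Ca/Ca sarcomas, at 9.92 and 9.92 in the Ca/+ sarcomas, at 7.41 in the Ca/Ca muscle and at 6.16 in the Ca/+ muscle. All sarcomas were above both muscles, and Ca/Ca sarcomas 3 and 5 were a step below 1 and 2. Top2a rose by 2.24 (SE 0.64, adjusted p = 0.0341, limma), and the call was lost without any 1 array except Ca/Ca sarcomas 3 and 5 (adjusted p up to 0.294) and with the mean of its probe sets (0.93, adjusted p = 0.0621). Mki67 stood at 8.52, 8.62, 7.76 and 6.39 in the Ca/Ca sarcomas, at 9.09 and 9.16 in the Ca/+ sarcomas, at 6.81 in the Ca/Ca muscle and at 6.15 in the Ca/+ muscle. One tumour, Ca/Ca sarcoma 5, lay between the muscles, and the other 5 lay above both. Mki67 differed by 1.77 (SE 0.68, adjusted p = 0.0906), and without Ca/Ca sarcoma 5 by 2.15 (adjusted p = 0.00567).

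**Figure D3:**
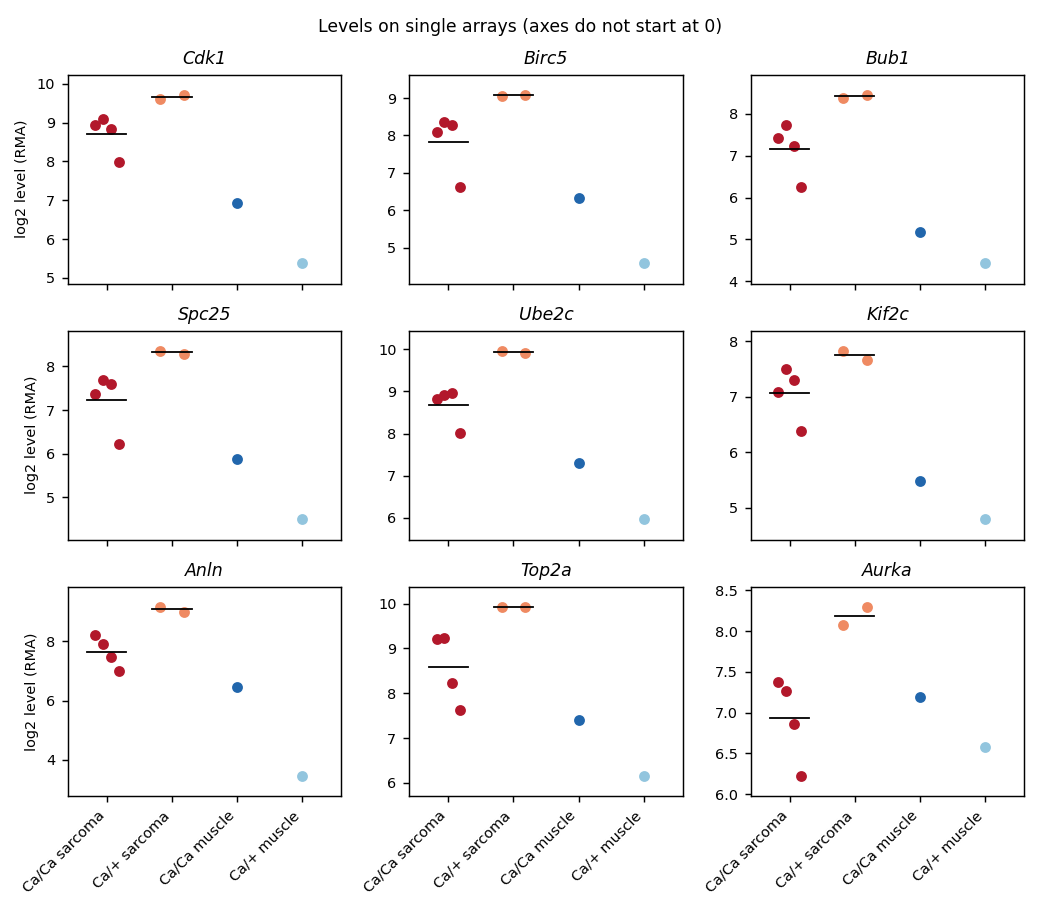
Log2 levels on single arrays of the member with the largest sarcoma-minus-muscle difference in each role, and of Aurka. Points are arrays, in the order Ca/Ca sarcoma, Ca/+ sarcoma, Ca/Ca muscle and Ca/+ muscle, and lines are means of groups with more than 1 array. The Ca/+ sarcomas are highest in all 9 panels, and in Aurka the lowest Ca/Ca sarcoma lies under both muscles.

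The lowest tumour and the highest pair were the same in nearly every member, while the order within the other tumours varied from gene to gene. The median member stood 0.13 below its mean over the 6 sarcomas in Ca/Ca sarcoma 1, 0.08 above it in Ca/Ca sarcoma 2, 0.32 below in Ca/Ca sarcoma 3 and 1.10 below in Ca/Ca sarcoma 5, against 0.75 and 0.76 above it in Ca/+ sarcomas 1 and 2. The same median over all genes lay between -0.03 and 0.01 on each of these arrays. Ca/Ca sarcoma 5 was the lowest tumour for 39 of the 41 members, against 20.5% of all genes. The exceptions were Kif4 and Foxm1, lowest in Ca/Ca sarcoma 3. The highest tumour was Ca/+ sarcoma 1 for 22 members and Ca/+ sarcoma 2 for 19, against 17.3% and 15.6% of all genes.

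These genes also varied more among the tumours than most. The SD over the 6 sarcomas had a median of 0.75 over the members, against 0.24 over all genes. Over the 4 Ca/Ca sarcomas alone the SD had a median of 0.53. The 2 Ca/+ sarcomas differed by a median of 0.15, from 0.01 for Top2a to 0.77 for Shcbp1. That is an absolute difference of 2 arrays and not an SD, and no value over all genes is given for this pair. Ca/Ca sarcoma 3 was below both Ca/Ca sarcomas 1 and 2 in 26 members (34.7% of all genes), most in Plk1 (1.16 below their mean) and Top2a (1.00 below), between them in 12, and above both in 3 (39.6% of all genes), most in Cks2 (0.43 above). Ca/Ca sarcoma 5 stayed above the Ca/Ca muscle in 35 members (52.8% of all genes), Aurka, Aurkb, Incenp, Kif11, Nusap1 and Mki67 being below it.

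Other cell types also differed among these tumours. The mean log2 level of 10 macrophage markers was 9.41 in Ca/Ca sarcoma 5 and 9.95 to 10.71 in the other 5, and that of 9 lymphocyte markers was 4.35 in Ca/Ca sarcoma 5 and 5.12 to 7.20 in the others. As the log2 of their summed signal, macrophage markers came to 13.38 in Ca/Ca sarcoma 5 and 13.83 to 14.50 in the others. Adipocyte markers averaged 5.28 in Ca/Ca sarcoma 5 and 5.77 to 7.31 in the other tumours, but their summed signal, 10.05 in Ca/Ca sarcoma 5, was lower still in Ca/Ca sarcoma 1 (9.68) and Ca/+ sarcoma 2 (9.54). Their part in the low mitotic levels of that tumour was not tested.

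**Figure D4:**
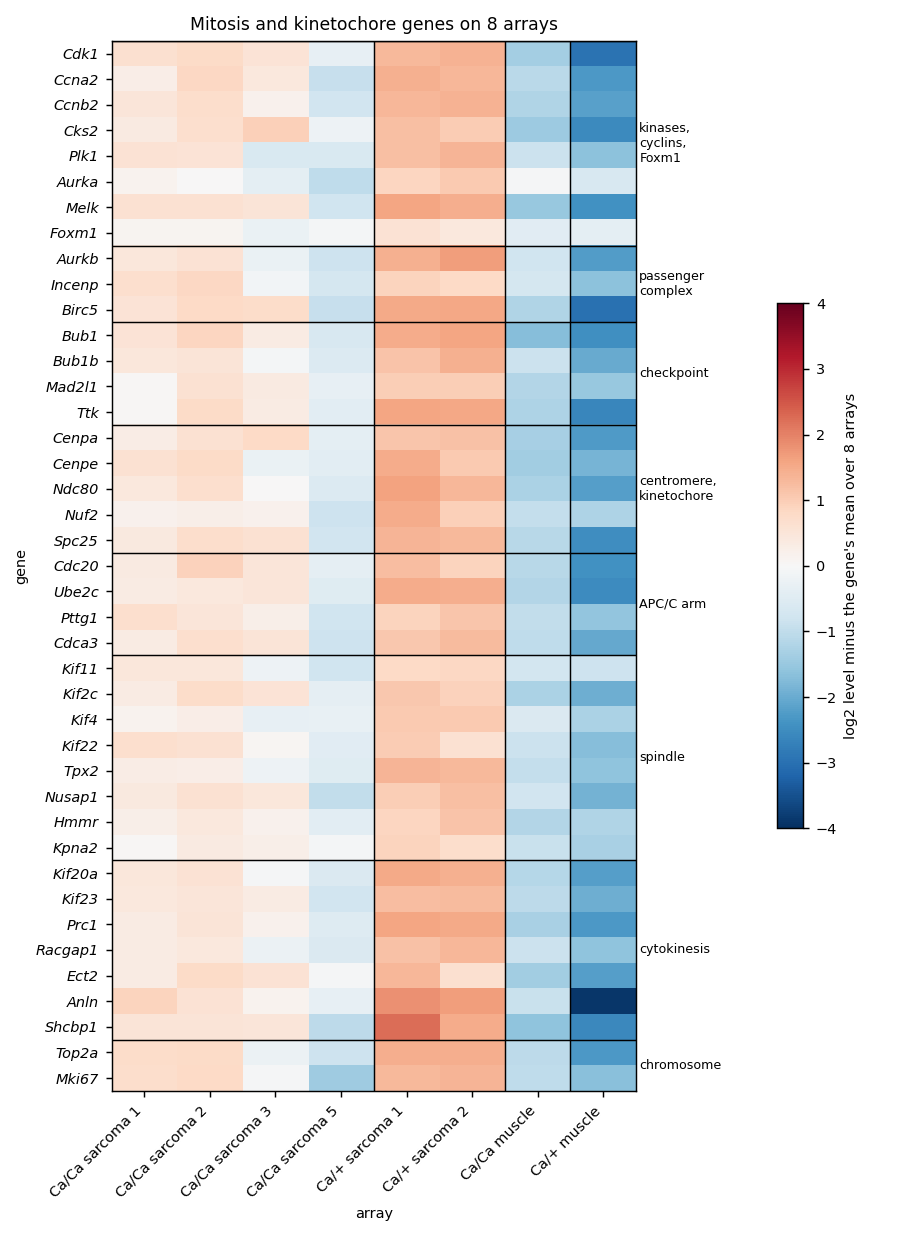
Log2 level of each of the 41 members on each array, minus the gene's mean over the 8 arrays, grouped by role (red above the mean, blue below). The Ca/+ sarcomas and Ca/Ca sarcomas 1 and 2 lie above the mean in all 41 members and Ca/Ca sarcoma 3 in 27, while Ca/Ca sarcoma 5 and both muscles lie below it in all 41, and the Ca/+ muscle is the lowest array in 39.

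The genotype comparison asked whether tumours with the BrafCa allele on both chromosomes differ from those with it on one. Every member was lower in the Ca/Ca sarcomas: 41 of 41 had a mean below that of the Ca/+ sarcomas, where 50.1% of all genes did, with a median difference of -1.19 against -0.0005 over all genes. In limma, none of the 41 passed at an adjusted p under 0.05, and of the 12393 genes 0 (0%) did. The lowest adjusted p of a member was 0.579. At an unadjusted p under 0.05, 30 of the 41 members were lower in Ca/Ca sarcomas, as were 4.89% of all genes. In 37 members all 4 Ca/Ca sarcomas lay below both Ca/+ sarcomas, which 11.3% of all genes did, and the exceptions were Incenp, Cdc20, Kif22 and Ect2.

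Shcbp1 had the largest of these differences. It stood at 7.46, 7.45, 7.40 and 5.88 in the Ca/Ca sarcomas and at 9.17 and 8.40 in the Ca/+ sarcomas, a difference of -1.74 (SE 0.51). The 3 upper Ca/Ca tumours lay within 0.06 of each other and about 1 below the nearer Ca/+ tumour, and the adjusted p was 0.618 (limma). Prc1 stood at 8.0, 8.18, 7.83 and 7.16 in the Ca/Ca sarcomas and at 9.26 and 9.18 in the Ca/+ sarcomas, a difference of -1.42 (SE 0.29, adjusted p = 0.579). Tpx2 differed by -1.36 (SE 0.25, adjusted p = 0.579) and Kif4 by -1.11 (SE 0.21, adjusted p = 0.579), the members with the smallest unadjusted p.

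The kinases followed the same order. Aurka, which did not separate sarcoma from muscle, averaged 6.93 ± 0.52 (SD, n = 4) in Ca/Ca sarcomas and 8.19 ± 0.15 (SD, n = 2) in Ca/+ sarcomas, a difference of -1.26 (SE 0.34) with no overlap. Aurkb differed by -1.54 (SE 0.42) and Plk1 by -1.29 (SE 0.42), against -0.95 (SE 0.32) for Cdk1 and -0.66 (SE 0.32) for Cks2, and none of these passed after adjustment over all genes. By role, the median ran from -0.86 in the spindle proteins to -1.36 in cytokinesis. Foxm1 had the smallest difference, -0.54 (SE 0.16). Its other probe sets differed by -0.57, -0.95 and 0.06, the last one dim (mean level 2.04), so this rank depends on the probe set.

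Single tumours moved these values. Without Ca/Ca sarcoma 5 the median over the members was -0.89, all 41 were still lower in Ca/Ca sarcomas and 35 had an unadjusted p under 0.05. That count was 12 without Ca/+ sarcoma 1 and 14 without Ca/+ sarcoma 2. Of all genes 8.64%, 3.82% and 6.63% had such a p, in either direction, in these 3 fits, against 7.84% with all 6 tumours. Skeletal muscle fibre markers averaged 7.66 to 8.79 in the Ca/Ca sarcomas, against 6.54 in Ca/+ sarcoma 1 and 8.52 in Ca/+ sarcoma 2, and macrophage markers 9.41 to 10.71 in the Ca/Ca sarcomas, against 9.95 in Ca/+ sarcoma 1 and 10.64 in Ca/+ sarcoma 2. The part of such cells in the genotype difference was not tested.

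The normal muscles, 1 array of each genotype, allow no test. The Ca/Ca muscle was above the Ca/+ muscle in 40 of 41 members, where 49.0% of all genes were, with a median difference of 0.93 against -0.01 over all genes. Anln, at 6.45 in the Ca/Ca muscle and at 3.46 in the Ca/+ muscle, differed most (2.99), and Birc5 (1.75), Cdk1 (1.56), Aurkb (1.44) and Spc25 (1.38) followed. Foxm1 was the exception, at 5.62 in the Ca/Ca muscle and at 5.68 in the Ca/+ muscle, and Hmmr was nearly level (0.04). Macrophage markers went the same way, 10 of 10 higher in the Ca/Ca muscle, with a mean of 10.01 there and 8.73 in the Ca/+ muscle, and adipocyte markers the other way, with a mean of 9.68 in the Ca/Ca muscle, against 11.34 in the Ca/+ muscle. DNA replication genes were higher in the Ca/Ca muscle in 16 of 21. So were 10 of 12 core subunits of the anaphase-promoting complex, 14 of 21 other centromere and kinetochore genes and 7 of 10 centrosome genes. The DREAM, B-Myb and E2F list had 9 of 13 higher there and the G1 cyclins and kinases 5 of 8. Condensin genes had 3 of 7 and cohesin and separation genes 4 of 9. Entry and exit genes had 6 of 11 and Cdk inhibitors 3 of 7. The part of macrophages and adipocytes in the muscle difference was not tested.

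The genotype difference had opposite signs in tumour and muscle in 40 of the 41 members. The interaction, the sarcoma-minus-muscle difference of Ca/Ca arrays minus that of Ca/+ arrays, was negative in 41 of 41 members, with a median of -2.02 against 0.01 over all genes. None of the 41 passed in limma (lowest adjusted p = 0.169, for Anln, at -4.42, SE 0.66), and 1 of the 12393 genes did (0.00807%). At an unadjusted p under 0.05, 29 members were negative, as were 3.70% of all genes, and that count was 15 without Ca/+ sarcoma 1 and 19 without Ca/+ sarcoma 2. In either direction 7.22% of all genes had such a p, and 5.56% and 6.33% in these 2 omissions. The fit has 4 residual degrees of freedom, and the spread of a muscle was taken to be that of the tumours.

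**Figure D5:**
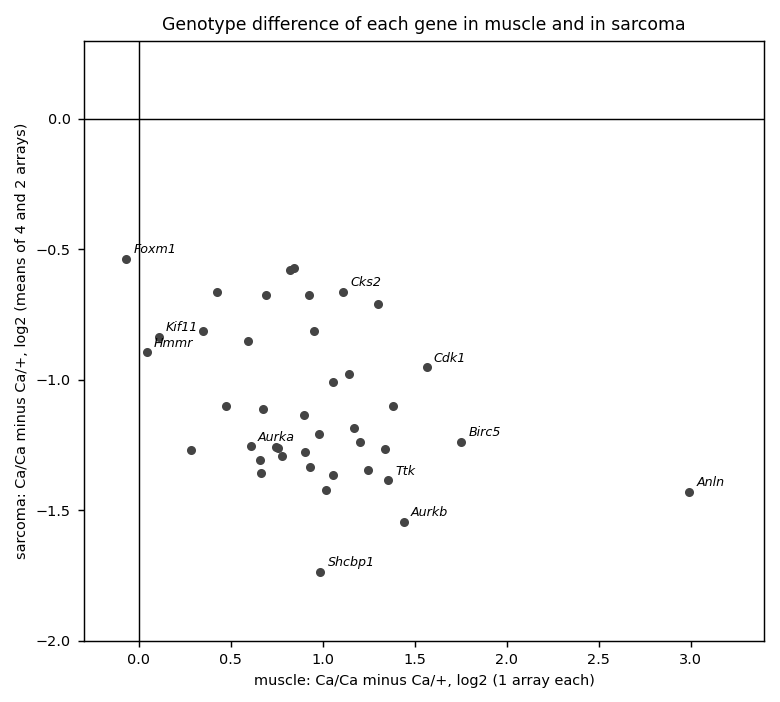
Ca/Ca minus Ca/+ difference of each of the 41 members in sarcoma (vertical, means of 4 and 2 arrays, log2) against the same difference in muscle (horizontal, 1 array each, log2). All points lie below 0 on the vertical axis, and 40 of 41 lie right of 0 on the horizontal axis.

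Neighbouring machinery rose in part, in counts to be read against the 13.1% of all genes that rose and the 13.2% that fell. Of 21 measured centromere and kinetochore genes outside the list, 15 rose, 0 fell and 6 did not pass, with a median of 1.09. Zwilch, of the complex that brings dynein to kinetochores, rose by 2.51 and Cenpf by 2.21 (adjusted p = 0.0147 and 0.0265, limma). Of 7 condensin subunits, which compact chromosomes, 6 rose, with Ncapg at 2.38 and Smc2 at 2.25. Cohesin and chromatid separation genes rose in 3 of 9, Cdca5 (sororin, which keeps cohesin on chromatids) by 2.28 and Sgo1 (shugoshin, which guards centromeric cohesin) by 1.28, and the other 6 did not pass. Without the Ca/+ muscle, 3 of the 21 other centromere and kinetochore genes, 1 of the 7 condensin genes and 0 of the 9 cohesin and separation genes rose in limma (12, 5 and 4 had an unadjusted p under 0.05). Without the Ca/Ca muscle these counts were 7, 1 and 1.

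Of 10 centrosome and centriole genes 4 rose, including Plk4, the kinase that starts centriole copying, by 2.28 and Cep55, which acts at the midbody, by 2.25. Regulators of mitotic entry and exit mostly did not pass, and the 2 of 11 that rose are a share near that of all genes: Gmnn (geminin, which blocks a second round of replication) by 1.45 and Plk3 by 1.39. Of the DREAM, B-Myb and E2F list 4 of 13 rose, 2 fell, a share near that of all genes, and 7 did not pass, and E2f8, a repressor of the E2F family, rose by 2.78 and E2f5 by 1.43. DNA replication genes rose in 16 of 21, with a median of 1.36, Mcm6 of the replicative helicase by 2.25 and Rrm2, which makes deoxynucleotides, by 2.05. Among 8 G1 cyclins and kinases 5 rose, Ccnd1 by 2.65 and Ccne1 by 1.83. Without the Ca/+ muscle 4 of the 21 replication genes and 1 of the 8 G1 genes rose, and 0 of the centrosome and 0 of the entry and exit genes (2 in each list had an unadjusted p under 0.05). Without the Ca/Ca muscle 8 replication, 3 G1, 2 centrosome and 0 entry and exit genes rose (5 of the last had an unadjusted p under 0.05). In the DREAM, B-Myb and E2F list 2 rose without the Ca/+ muscle and 4 without the Ca/Ca muscle, and 0 fell in limma under either omission. Of the replication genes 9 rose without Ca/Ca sarcoma 1 and 10 without Ca/+ sarcoma 1, against 11.5% and 11.7% of all genes. Of the entry and exit genes 4 rose without Ca/Ca sarcoma 3 and 5 without Ca/Ca sarcoma 5, against 13.9% and 14.3%.

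Of 7 inhibitors of the cyclin-dependent kinases 2 rose, against 13.1% of all genes. A single one fell, a share near the 13.2% of all genes that fell. Cdkn2a, which encodes inhibitors of Cdk4 and Cdk6 and the p53 activator Arf, stood at 11.37, 11.35, 11.01 and 11.46 in the Ca/Ca sarcomas, at 12 and 8.78 in the Ca/+ sarcomas, at 8.88 in the Ca/Ca muscle and at 4.32 in the Ca/+ muscle. Ca/+ sarcoma 2 was low among tumours, just under the Ca/Ca muscle, and had mitotic levels as high as Ca/+ sarcoma 1. Cdkn2a rose by 4.39 (adjusted p = 0.0246, limma) and Cdkn2b by 3.39 (adjusted p = 0.00643), while Cdkn1b fell by 0.85 (adjusted p = 0.0343). Without the Ca/+ muscle Cdkn2a was 2.11 higher and Cdkn2b 2.12 higher, and neither passed (adjusted p = 0.254 and 0.0592), nor did Cdkn1b (adjusted p = 0.212). The call of Cdkn1b was lost under 4 other single omissions, those of the Ca/Ca muscle (adjusted p = 0.109), Ca/Ca sarcoma 2 (0.0631), Ca/Ca sarcoma 3 (0.0553) and Ca/+ sarcoma 2 (0.0546). Cdkn1a, the p53 target p21, averaged 9.40 ± 0.38 over the sarcomas (SD, n = 6) and 8.95 ± 0.55 over the muscles (SD, n = 2) and did not pass (adjusted p = 0.317). Cdkn1c (1.12), Cdkn2c (-0.45) and Cdkn2d (-0.12) did not pass either. Between Ca/Ca and Ca/+ sarcomas 0 of the 7 inhibitors passed in limma. Among them 1 had an unadjusted p under 0.05, as did 7.84% of all genes.

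Markers of other cells gave 0 of 11 muscle fibre genes higher and 11 lower (Casq1 by -5.86 and Pygm by -5.51). Satellite cell and myoblast markers fell in 6 of 8 and rose in 1, with Myf6 at -3.53 and Myod1 at -2.46. All 5 adipocyte markers fell (Cidec by -5.45, Adipoq by -5.39), as did 5 of 8 endothelial markers (Vwf by -2.87, Tek by -2.41) and 2 of 7 erythroid and marrow precursor markers (Alas2 by -2.18, Slc4a1 by -1.28). Of 9 fibroblast markers Dpt fell (-3.04) and Thy1 rose (1.73), and of 10 macrophage markers 1 rose, Cd68 by 0.98. Over all genes 13.1% rose and 13.2% fell, and the fibroblast and macrophage counts are shares near these. Of 9 lymphocyte markers 0 passed in limma and 0 had an unadjusted p under 0.05, Cd3e having the smallest p (-0.67, adjusted p = 0.195). All 11 muscle fibre markers also fell without the Ca/+ muscle, whereas 0 macrophage and 0 fibroblast markers passed there (0 and 3 had an unadjusted p under 0.05). Without that muscle 3 adipocyte, 3 endothelial, 4 satellite cell and 1 erythroid markers fell, and without the Ca/Ca muscle 5, 4, 5 and 1. Without Ca/+ sarcoma 1 the erythroid count was 1. Of the macrophage markers 0 rose without Ca/Ca sarcoma 1, 2 or 3 or Ca/+ sarcoma 2 (3 had an unadjusted p under 0.05 in each of these fits), 2 without Ca/+ sarcoma 1 and 3 without Ca/Ca sarcoma 5 or without the Ca/Ca muscle. With a muscle left out smaller shares of all genes rose and fell, so counts under those omissions are not to be read against 13.1% and 13.2%. The part of these cell types in the mitotic difference was not tested.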

How the data were processed

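Log2 expression values per probe set, deposited by the authors in 1 table, were used as they stood. RMA is the method named, per the submitters' processing notes: it subtracts background, brings all arrays to 1 distribution and joins the probes of each set into 1 value. Its version, scan dates and batches are not given in the sources used here. That the scale is log2 was read from the range of the values. A change in total RNA content is not measured by such values, and the number of arrays limits the precision.

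Of 22690 probe sets, 64 were controls, 20380 had 1 symbol, 691 had several and 1555 had none, and 0 columns belonged to other samples. Each gene was read from its probe set with the highest mean. The members had 33 further probe sets, 28 of them higher in sarcoma. Of the 11 with a mean level under 4, 0 were 2-fold higher, and of the other 22, 16 were. No pair of arrays shared more than 32 equal values.

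Groups came from the sample titles. Tests used limma 3.58.1 (lmFit and eBayes, R 4.3.3) with Benjamini-Hochberg adjustment over all 12393 genes, a threshold of 0.05, and every adjusted p comes from it. Sarcoma against muscle used all 8 arrays, the genotype comparison the 6 sarcomas, and the interaction 4 groups. The procedure was tested on simulated data, in which muscles varied like the sarcomas. The interaction was simulated there at differences larger than those of most members. That test therefore does not show whether an interaction of the size seen in the members would pass. The tumour numbers are shared between the genotypes for 1 and 2 only, and they were not taken as pairs. Deviations of equal numbers from their group means correlated at -0.19 and 0.29 over the genes. With 2 Ca/+ sarcomas these deviations are exact opposites of each other, so such correlations cannot show whether equal numbers are pairs.

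The members, the lists of neighbouring genes and markers, and the tests were chosen with earlier results of these data known. Named were all members, the 2 genes of each list that changed most among those that passed (or the one of smallest p), and all Cdk inhibitors. Figures were drawn with matplotlib 3.10.9. Alternatives were other centrings, cyclic loess, the mean of probe sets, filters on dim genes, trended and weighted fits, single genotypes, single omissions and a replicate block, and 1 that was added after seeing the data, without the Ca/+ muscle and Ca/Ca sarcoma 5.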

Additional observations from a re-analysis of the deposited data

Results flagged for a closer look

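In 8 of 82 groups tested, 4 Ca/Ca sarcomas or all 6 sarcomas of a member, 1 array stood apart from the rest by more than Dixon's limit. That limit marks about 1 in 20 independent groups by chance. These groups share arrays and their genes move together, so the count cannot be held against that rate, and no share over all genes is given. The array that stood apart was Ca/Ca sarcoma 5, on the low side, each time. Melk was at 5.00 there and at 6.29 to 6.40 in the other Ca/Ca sarcomas, Birc5 at 6.61 and 8.08 to 8.35, Nuf2 at 4.66 and 5.69 to 5.74, and Ube2c at 8.01 and 8.82 to 8.97. Nusap1 was at 6.05 and 7.42 to 7.66, Kif23 at 5.57 and 6.65 to 6.80, and Shcbp1 at 5.88 and 7.40 to 7.46. Among all 6 sarcomas Nusap1, at 6.05 against 7.42 to 8.23, stood apart as well.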

How the results depend on the processing

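The 33 members that rose in sarcoma were 2 to 39 when 1 array was left out, the lowest without the Ca/+ muscle and the highest without Ca/Ca sarcoma 5, and the median difference then ran from 1.62 to 2.57. Among Ca/Ca arrays only the count was 0 and the median 1.24, among Ca/+ arrays only 40 and 3.25, and without both the Ca/+ muscle and Ca/Ca sarcoma 5, an alternative added after seeing the data, 21 and 1.89. Each of these settings has fewer arrays, and that of the Ca/+ arrays takes its spread from 2 sarcomas alone. Aurka turned to -0.26 in the Ca/Ca arrays. Under the other settings 27 to 40 of the 41 members rose, and 26 of 28 without the dimmest 50% of genes. Of all genes 5.41% rose with ribosomal protein centring, the lowest of these shares, and 23.0% with that filter, the highest. Housekeeping and ribosomal protein centring moved the median of all genes to -0.33 and -0.29, with 714 genes higher and 3062 lower, and 671 and 3217, against 1626 and 1630, and cyclic loess gave 1157 and 1830. The members that rose were then 30, 27 and 31. Between genotypes 0 members passed and 41 of 41 (28 of 28 without the dimmest 50% of genes) were lower in Ca/Ca sarcomas in all alternatives run. With the tumour number as a replicate block 0 passed in limma (lowest adjusted p = 0.650) and the median was -0.76. In that fit 31 had an unadjusted p under 0.05, as did 6.92% of all genes in either direction. The block leaves few residual degrees of freedom. Numbers 3 and 5 occur only among the Ca/Ca sarcomas, so that genotype difference rests on tumours 1 and 2 of each genotype. Ca/Ca sarcoma 5, the lowest tumour, does not enter it. In the genotype comparison, housekeeping centring moved the median of all genes to 0.20. It left 21 members at an unadjusted p under 0.05, against 14.2% of all genes in either direction. In the interaction 0 members passed under every alternative run. Dim probe sets limit what low genes can show.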
